A study of Mus musculus with 20 samples.

Results

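The constitutive proteasome subunits were followed in mouse liver as the 35 genes of the expression table whose symbols are Psma, Psmb, Psmc or Psmd and a number, leaving out Psmb8, Psmb9, Psmb10 and Psmb11. They made up 35 of the 55487 genes counted, and the rule that picked them by symbol used no measured value. The symbols cover 8 alpha and 7 beta subunits of the core particle, 6 ATPases of the regulatory particle, and 14 genes numbered as its non-ATPase subunits. RNA had been sequenced from liver of female mice, 15 weeks old, of the C57BL/6N background, in 4 groups of 5 libraries. The groups were Plin2+/+ mice on chow, Plin2+/+ mice fasted for 24 h, and the same feeding states in mice without Plin2, the gene of perilipin 2, a protein that coats lipid droplets. The labels of the last 10 libraries give no genotype: they were read as Plin2-/- by elimination, because the design text names only Plin2+/+ and Plin2-/- mice, and are called Plin2-null. The labels do not say how the allele was made, whether it acts outside the liver, or from how many animals each library came. No label ties a library to an animal, litter, batch or day, so the tests weigh only the spread among these libraries, which may in part be technical.

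The proteasome is the protease that takes apart proteins tagged with ubiquitin, and together with autophagy it carries the turnover of cell protein, which in liver supplies amino acids during fasting. Its core particle is a barrel of stacked rings: alpha subunits form the gate, and beta subunits form the chamber, where Psmb5, Psmb6 and Psmb7 carry the catalytic sites. The regulatory particle caps the barrel: its non-ATPase subunits bind ubiquitin and remove it, and its ring of ATPases unfolds the substrate and feeds it into the core. In cells under interferon, Psmb8, Psmb9 and Psmb10 replace the constitutive catalytic subunits, which gives the immunoproteasome.

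The libraries held between 25506471 and 65579038 counted reads, and 16312 genes, all 35 proteasome genes among them, passed the filter on low counts. Plin2 itself had 260 ± 58.2 and 1494 ± 240.1 CPM (counts scaled by library size and edgeR's TMM factors) in fed and fasted Plin2+/+ livers, and 19.7 ± 6.96 and 90.5 ± 22.7 CPM in the Plin2-null ones (SD, n = 5 each). It was 13.2-fold lower in the fed and 16.5-fold lower in the fasted Plin2-null group (exact two-sided permutation p = 0.00794 each, the smallest that 5 against 5 can give). Hepatocyte markers summed to between 80600 and 163200 CPM in every library. The TMM scaling factors ran from 0.750, in Plin2-null fasted replicate 3, to 1.15. Scaling by library size alone moved the median of all genes on fasting by -0.16 (log2) in Plin2+/+ and by -0.21 in Plin2-null livers. It turned the calls over all genes from 3416 higher and 3541 lower to 1854 and 4173 in Plin2+/+, and from 2942 and 2954 to 1376 and 4243 in Plin2-null livers. Changes are therefore given relative to the TMM scale, on which the median of all genes was -0.01 in both genotypes.

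Levels can be compared between genes only per transcript length, and the deposited TPM values (counts scaled by gene length and depth) serve that purpose. In fed Plin2+/+ livers Psma6, an alpha subunit, stood highest at 189 ± 18.8 TPM, followed by Psmc1, an ATPase, at 151 ± 15.3 (SD, n = 5 each). The libraries of Psma6 and Psmc1 overlapped, and every library of Psmc1 lay above every library of the next, Psmc5, at 106 ± 12.2 TPM. Without Psma8, means ran over a 4.88-fold range among alpha subunits and over a 2.91-fold range among beta subunits. The ATPases spanned a 3.45-fold range, and the 11 non-ATPase genes that are not assembly chaperones a 3.79-fold range.

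The lowest genes were set apart from the others by their roles. Psmd10 (gankyrin), Psmd5 and Psmd9 encode chaperones that help assemble the ATPase ring and are not part of the finished particle, and they had 14.6 ± 2.91, 8.81 ± 1.17 and 5.89 ± 0.829 TPM in fed Plin2+/+ livers (SD, n = 5 each). In this group each of the 3 lay apart from its neighbours in the order of levels, with no overlap of libraries. After fasting Psmd9 reached 13.6 ± 3.55 and 13.0 ± 4.35 TPM in Plin2+/+ and Plin2-null livers and overlapped with Psmd10, at 13.4 ± 1.40 and 12.6 ± 2.66 TPM (SD, n = 5 each). Psma8, an alpha subunit known from testis, had 0.608 ± 0.152 TPM there and at most 0.982 ± 0.600 TPM in any group, in fasted Plin2-null livers (SD, n = 5 each). Its counts were 14 to 89 per library, which is too few for the word constitutive in liver. Psma6 and Psmc1 had the highest means in all 4 groups, and after fasting Psmd4 was among the first 5 in both genotypes, overlapping with Psmc5 and lying below every library of Psmc1 in Plin2-null liver.

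Most of the proteasome genes were higher in fasted than in fed Plin2+/+ liver, with smaller median changes in the core than in the regulatory particle. The median log2 changes were 0.54 for alpha and 0.36 for beta subunits, 0.72 for the ATPases and 0.67 for the non-ATPase genes. By edgeR's quasi-likelihood test with Benjamini-Hochberg adjustment over all genes, 31 of the 35 were higher at an adjusted p under 0.05 and 0 were lower. Of all genes tested, 20.9% were higher and 21.7% lower. The median log2 change of the 35 was 0.66, against -0.01 over all genes, and their values ran from 0.04 to 1.35. All 5 fasted libraries lay above all 5 fed libraries for 23 of the 35 genes, or 65.7%, against 13.2% of all genes tested. All 35 log2 changes were positive on the TMM scale, and with library size alone Psmd10 turned to -0.13, 24 genes were higher and 0 lower.

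In Plin2-null liver the count was again 31 higher and 0 lower, where 18% of all genes tested were higher and 18.1% lower (edgeR's quasi-likelihood test). The median log2 change was 0.62, against -0.01 over all genes, with values from 0.05 to 1.40. The fasted libraries lay above the fed ones without overlap for 28 of the 35 genes, or 80%, against 12.6% of all genes. All 35 log2 changes were positive on the TMM scale here too, and with library size alone Psma4, Psmd5 and Psmd10 turned to -0.09, -0.16 and -0.17, 25 genes were higher and 0 lower. On the deposited TPM values, tested with limma on log2(TPM + 1), 17 genes were higher and 0 lower, and without Plin2-null fasted replicate 3, the library with the lowest scaling factor, 24 were higher and 0 lower. The last setting was chosen after seeing the data.

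**Figure D1:**
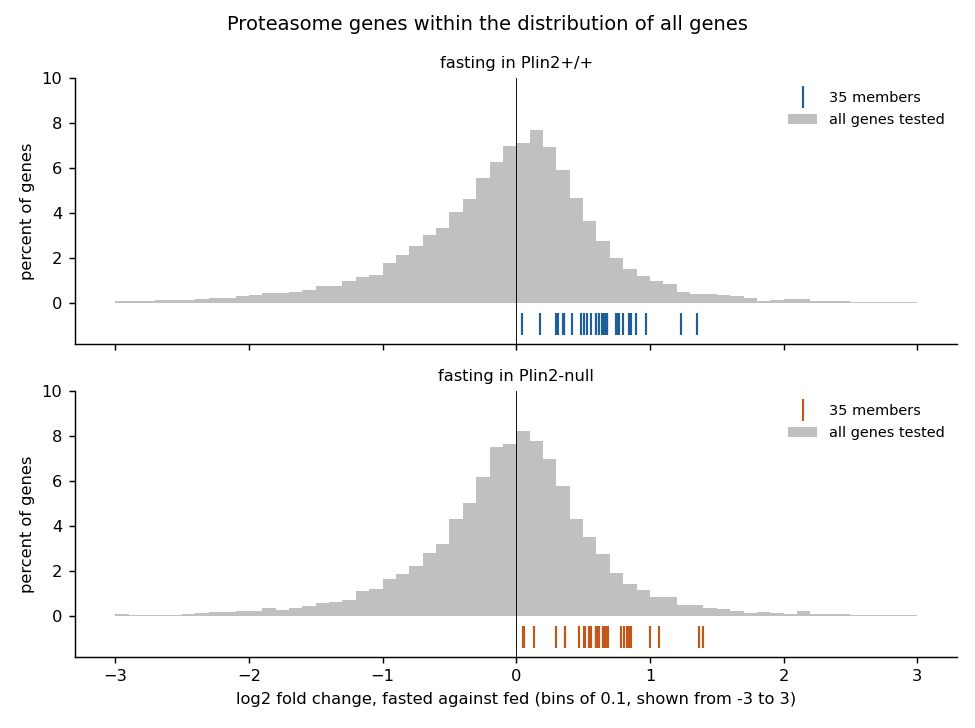
Distribution of the log2 fold change, fasted against fed, over the 16312 genes tested (grey bars, percent of genes in bins of 0.1) in Plin2+/+ (top) and Plin2-null liver (bottom), with the 35 proteasome genes as coloured ticks. The ticks run from 0.04 to 1.35 and from 0.05 to 1.40, while the grey distribution is centred at -0.01 in both.

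The 2 genotypes have no library in common. There were 29 genes higher in both, 2 higher in Plin2+/+ only by the threshold (Psma4 and Psmd5), 2 higher in Plin2-null only by the threshold (Psmb5 and Psmb6), and 2 called in neither (Psma8 and Psmd10). The shared genes were 93.5% of those higher in Plin2+/+ and 93.5% of those higher in Plin2-null liver. Over all genes tested 2053 were higher in both, which is 60.1% of those higher in Plin2+/+ and 69.8% of those higher in Plin2-null liver. Over the 35 genes the log2 changes of the 2 genotypes had a Pearson r of 0.734, against 0.842 over all genes tested, both given as descriptions because the genes share the libraries. The change was larger in Plin2+/+ for 18 genes and smaller for the other 17.

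Summed over the 35 genes, the fed Plin2+/+ libraries held 2109, 2223, 2066, 1885 and 2152 CPM and the fasted ones 2919.8, 3683, 3537, 3367 and 3099.6 CPM. The fed Plin2-null libraries held 2071, 2171, 1902, 2178 and 1996 CPM and the fasted ones 3039.8, 3559.5, 3505, 3101 and 2995 CPM. Every fasted library lay above every fed library of its genotype, and the ratio of the means was 1.59 in Plin2+/+ and 1.57 in Plin2-null liver. On the deposited TPM scale the sums were 2057 ± 166 and 2893 ± 137 in Plin2+/+, and 2166 ± 196 and 2793 ± 395 in Plin2-null liver (SD, n = 5 each). The TPM ratios were 1.41 without overlap and 1.29 with overlap between the Plin2-null groups. In RNA of whole liver, more RNA per cell and a larger share of the cells that express a gene cannot be told apart.

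**Figure D2:**
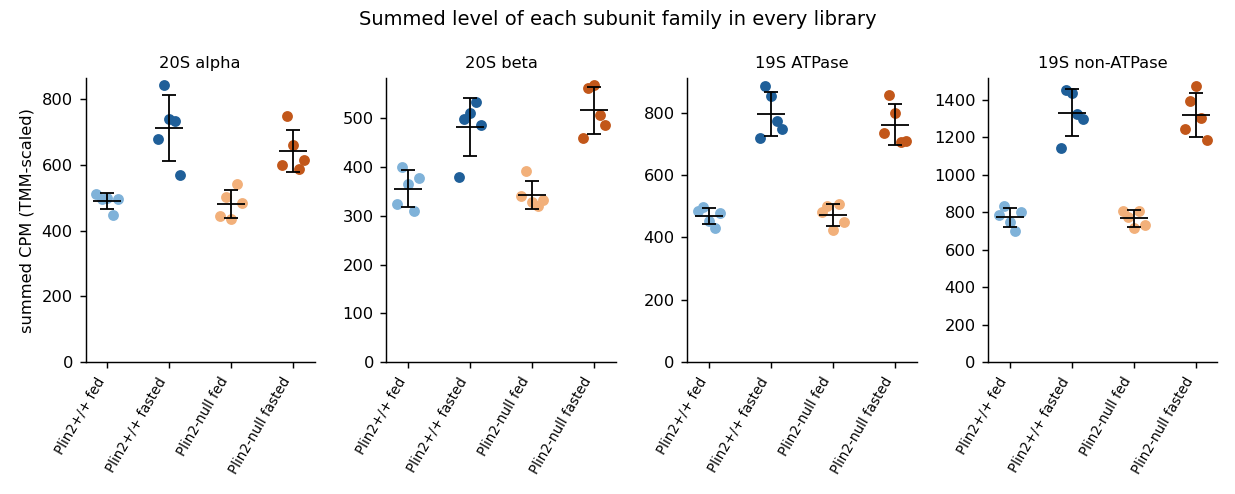
Summed CPM (TMM-scaled) of the alpha, beta, ATPase and non-ATPase genes in every library, with mean and SD as black bars (n = 5 per group, axes starting at 0). Fasted libraries lie above fed ones in each panel, except for 1 fasted Plin2+/+ library among the beta subunits, at 379 CPM.

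Among the alpha subunits, which gate the core, 7 of 8 rose in Plin2+/+ and 6 of 8 in Plin2-null liver, with median log2 changes of 0.54 and 0.46. Of all genes tested, 20.9% were higher in Plin2+/+ and 18% in Plin2-null liver. Psma6 showed the steepest rise of them in Plin2+/+ mice. Its level was 94.2, 85.2, 86.9, 91.1 and 84.7 CPM in the fed and 139, 179.6, 167, 144 and 113 CPM in the fasted Plin2+/+ libraries. In Plin2-null mice it was 82.7, 87.8, 77.2, 100.2 and 80.223 CPM fed and 115, 146, 129, 109 and 127 CPM fasted. The fasted libraries stood above the fed ones in both genotypes, and the log2 change was 0.75 ± 0.11 (SE; edgeR adjusted p = 1.72e-05) and 0.55 ± 0.11 (adjusted p = 6.62e-04). Psma7 rose by 0.67 ± 0.11 and 0.82 ± 0.11, and Psma5 by 0.64 ± 0.10 and 0.60 ± 0.10 (log2, SE). Psma1 rose by 0.53 ± 0.12 and 0.37 ± 0.12, Psma2 by 0.48 ± 0.12 and 0.36 ± 0.12, and Psma3 by 0.42 ± 0.12 and 0.30 ± 0.12. In Plin2-null liver Psma3 was at the threshold and Psma2 near it (edgeR adjusted p = 0.0497 and 0.0214), and their calls were lost under 17 and 9 of 22 other settings. The smallest values belonged to Psma4, which rose in Plin2+/+ liver by 0.36 ± 0.10 and stood at 0.13 ± 0.10 in Plin2-null liver (edgeR adjusted p = 0.336). Psma8 did not pass the test at its 14 to 89 counts, with log2 changes of 0.56 ± 0.39 and 0.60 ± 0.38.

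The beta subunits formed the group with the lowest median in Plin2+/+ liver, 0.36 with 5 of 7 higher, and a median of 0.60 with 7 of 7 higher in Plin2-null liver. The shares of all genes tested that were higher were 20.9% and 18%. The catalytic subunits accounted for both genes without a call in Plin2+/+ liver. Psmb5, the chymotrypsin-like subunit and the main target of proteasome inhibitor drugs, had 15.6, 24.6, 18.7, 15.3 and 24.5 CPM in the fed and 14.4, 20.0, 31.6, 29.4 and 44.6 CPM in the fasted Plin2+/+ libraries. The fasted values spread from below the lowest fed library to well above the highest, and the log2 change was 0.50 ± 0.26 (SE; edgeR adjusted p = 0.13). Plin2-null livers held 22.4, 25.2, 19.0, 12.7 and 16.0 CPM fed and 28.2, 35.3, 52.1, 51.6 and 33.1 CPM fasted. These groups did not overlap, and Psmb5 rose 2.10-fold (log2 1.07 ± 0.26; edgeR adjusted p = 0.00365).

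Psmb6, the caspase-like subunit, followed a similar course. In Plin2+/+ mice it had 57.6, 82.1, 69.0, 49.0 and 72.0 CPM fed and 44.9, 64.0, 78.1, 90.1 and 95.4 CPM fasted, 2 overlapping sets with a log2 difference of 0.18 ± 0.18 (edgeR adjusted p = 0.453). In Plin2-null mice it rose from 69.5, 78.9, 65.1, 43.0 and 63.2 CPM to 89.9, 95.4, 109, 103 and 85.5 CPM, without overlap (log2 0.60 ± 0.18; edgeR adjusted p = 0.0127). Psmb7, the trypsin-like subunit, rose in both genotypes, by 0.60 ± 0.10 and 0.47 ± 0.10 (log2, SE). In Plin2-null liver the calls of Psmb6 and Psmb7 were each lost under 4 of 22 other settings. These were library size alone and the limma fits on the TPM values. The structural subunits Psmb4 and Psmb1 rose by 0.76 ± 0.12 and 0.36 ± 0.11 in Plin2+/+ and by 0.66 ± 0.12 and 0.51 ± 0.11 in Plin2-null liver. The calls for Psmb2 and Psmb3 in Plin2+/+ liver were close to the threshold, at edgeR adjusted p = 0.0445 and 0.0427, and were lost under 16 and 14 of 21 other settings, among them library size alone and limma on the TPM values. In Plin2-null liver Psmb2 and Psmb3 rose by 0.69 ± 0.12 and 0.55 ± 0.12.

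The 6 ATPases, which unfold the substrate, rose together in both genotypes: 6 of 6 were higher, with median log2 changes of 0.72 and 0.69. Of all genes tested, 20.9% were higher in Plin2+/+ and 18% in Plin2-null liver. Psmc1 had 119.7, 110.3, 108, 102 and 112 CPM in the fed and 185, 238, 219.8, 183 and 178 CPM in the fasted Plin2+/+ libraries. The Plin2-null libraries had 115, 116, 101, 115 and 104 CPM fed and 191, 203, 215, 165 and 189.8 CPM fasted. No fed and fasted library overlapped, and Psmc1 rose 1.82-fold and 1.75-fold (log2 0.86 ± 0.10 and 0.81 ± 0.10; edgeR adjusted p = 4.09e-07 and 1.32e-06). Psmc2 rose by 0.77 ± 0.10 and 0.55 ± 0.10, Psmc3 by 0.65 ± 0.12 and 0.78 ± 0.12, and Psmc4 by 0.68 ± 0.11 and 0.85 ± 0.11 (log2, SE). Psmc5 rose by 0.67 ± 0.09 and 0.61 ± 0.09. Psmc4 went from 63.4, 67.2, 53.4, 58.0 and 59.3 CPM in fed to 97.6, 123, 114, 98.7 and 111 CPM in fasted Plin2-null libraries, which did not overlap. Psmc6 showed the widest gap between genotypes in this family. It had 94.3, 82.5, 85.5, 83.4 and 78.3 CPM fed and 155, 187, 157, 144 and 121 CPM fasted in Plin2+/+ mice, and 83.0, 85.7, 80.631, 118 and 82.5 CPM fed and 127, 154, 135, 119 and 105 CPM fasted in Plin2-null mice. Its log2 change was 0.85 ± 0.13 against 0.51 ± 0.12, a gap that did not pass the test of the difference (edgeR adjusted p = 0.384). With limma on the TPM values of all libraries, the Plin2-null calls of Psmc2, Psmc5 and Psmc6 were lost. That of Psmc6 was also lost with library size alone. The summed TPM of the ATPases rose 1.51-fold without overlap in Plin2+/+ liver, and 1.34-fold with overlap in Plin2-null liver.

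The non-ATPase genes held both the largest changes and the smallest. There were 13 of 14 higher in Plin2+/+ and 12 of 14 in Plin2-null liver, against 20.9% and 18% of all genes tested. The median log2 change was 0.67 in each. Psmd4 (ENSMUSG00000005625, chr3:95032694-95042614, minus strand) encodes the ubiquitin receptor of the regulatory particle. It had 62.3, 80.881, 61.9, 62.5 and 74.4 CPM in the fed and 112, 144, 196, 159 and 192 CPM in the fasted Plin2+/+ libraries. Its Plin2-null values were 78.5, 72.4, 62.7, 58.8 and 60.7 CPM fed and 170.0, 171, 182, 176 and 178 CPM fasted. The fasted groups stood far above the fed ones, and the 5 fasted Plin2-null libraries lay within 1.07-fold of each other. Psmd4 rose 2.35-fold in Plin2+/+ (log2 1.23 ± 0.13; edgeR adjusted p = 1.59e-07) and 2.63-fold in Plin2-null liver (log2 1.40 ± 0.13; edgeR adjusted p = 4.17e-08).

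Psmd9 (ENSMUSG00000029440, chr5:123169413-123250131, plus strand), an assembly chaperone of the ATPase ring, was low in fed liver and rose as steeply. In Plin2+/+ mice it had 12.3, 17.9, 16.1, 16.7 and 18.3 CPM fed and 31.3, 36.1, 44.7, 42.2 and 52.9 CPM fasted. In Plin2-null mice it had 19.5, 15.0, 15.2, 13.9 and 15.0 CPM fed and 32.3, 33.1, 47.6, 54.2 and 35.1 CPM fasted. All fasted libraries lay above all fed ones, and the rise was 2.55-fold (log2 1.35 ± 0.16; edgeR adjusted p = 7.23e-07) and 2.58-fold (log2 1.37 ± 0.16; adjusted p = 8.44e-07). In the GENCODE M21 annotation 25.5% of the exon bases of Psmd9 are shared with Gm26745 on the other strand, a gene without values in the count table. Whether the strand was used in counting is not known from the labels, so reads of such pairs may be mixed. The same holds for genes next to an expressed neighbour: Psmb7 shares 11.8% of its exon bases with Nek6, Psmd13 10.1% with Sirt3 and Psmc3 8.25% with Slc39a13, all on the other strand. Those neighbours moved by between -0.36 and 0.75 (log2) on fasting.

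Neither of the other assembly chaperones rose in this way. Psmd10 (ENSMUSG00000031429, chrX:140948429-140956728, minus strand) had 8.57, 6.31, 7.87, 9.98 and 7.82 CPM in fed and 8.23, 9.86, 7.96, 8.27 and 7.28 CPM in fasted Plin2+/+ libraries. In the Plin2-null ones it had 7.67, 7.92, 7.45, 8.18 and 7.66 CPM fed and 7.04, 10.0, 7.93, 6.63 and 8.58 CPM fasted. These sets overlapped throughout, with log2 differences of 0.04 ± 0.13 and 0.05 ± 0.13 (edgeR adjusted p = 0.831 and 0.797). Psmd5 was higher in fasted Plin2+/+ livers by 0.35 ± 0.13 (edgeR adjusted p = 0.033), a call lost under 12 of 21 other settings, and stood at 0.06 ± 0.13 in Plin2-null livers (adjusted p = 0.767).

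Most structural subunits of the regulatory particle lay between these extremes. Psmd6 had 38.3, 33.7, 32.4, 30.6 and 34.0 CPM fed and 59.8, 81.3, 70.3, 67.0 and 52.9 CPM fasted in Plin2+/+ mice, without overlap, and rose 1.96-fold there and 1.79-fold in Plin2-null mice (log2 0.97 ± 0.11 and 0.84 ± 0.11). Psmd1 had 121, 108, 102, 92.3 and 104 CPM fed and 202, 235, 184, 194 and 167 CPM fasted in the Plin2+/+ libraries. Psmd1 and Psmd2, the large scaffold subunits, rose by 0.90 ± 0.11 and 0.66 ± 0.10 in Plin2+/+ and by 0.68 ± 0.11 and 0.65 ± 0.10 in Plin2-null liver (log2, SE). Psmd14, the deubiquitinase that removes the ubiquitin chain, rose by 0.68 ± 0.13 and 0.56 ± 0.13. Psmd3, a lid subunit, had 54.2, 56.6, 42.2, 39.4 and 41.8 CPM in fed and 81.3, 91.1, 113, 99.8 and 82.5 CPM in fasted Plin2-null libraries. It rose by 0.66 ± 0.16 in Plin2+/+ and 2.00-fold in Plin2-null liver (log2 1.00 ± 0.17). Psmd12 and Psmd8 are further lid subunits. The rise was 0.85 ± 0.11 and 0.86 ± 0.11 for Psmd12, and 0.80 ± 0.10 and 0.84 ± 0.10 for Psmd8. Psmd7, Psmd11 and Psmd13 rose by between 0.60 and 0.66 in Plin2+/+ and by between 0.62 and 0.66 in Plin2-null liver.

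**Figure D3:**
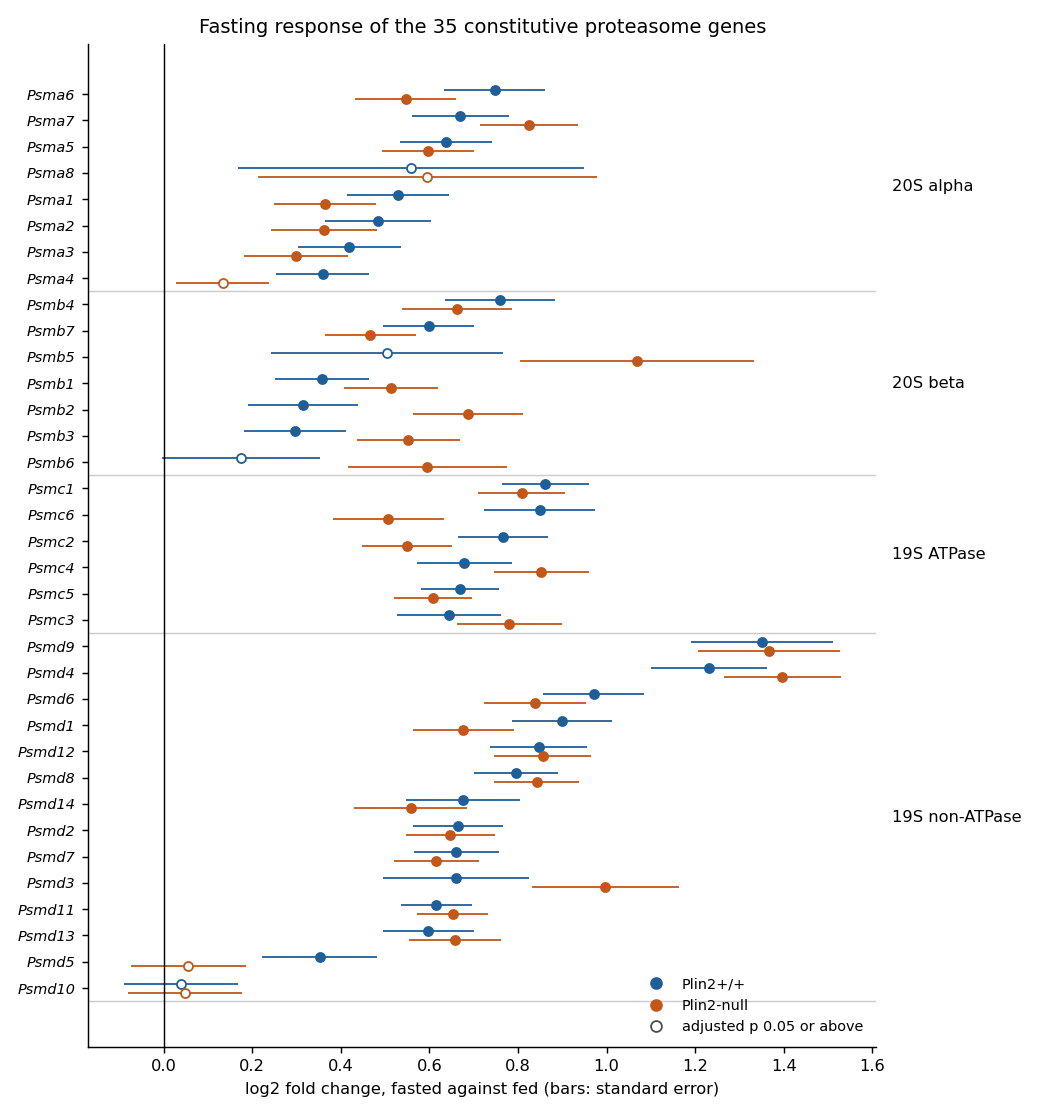
Log2 fold change with standard error, fasted against fed, of the 35 genes by family, in Plin2+/+ (blue) and Plin2-null liver (orange), with open circles at an adjusted p of 0.05 or above. Psmd9 and Psmd4 stand furthest to the right in both genotypes, from 1.23 to 1.40, and Psmd10 lies next to 0.

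Promoter sequence was examined because the genes moved together. RefSeq windows from 250 bases before to 50 bases after the start (build GRCm38.p6) matched 28 of the 35 genes by symbol. They were searched on both strands for the antioxidant response core TGACNNNGC, the stricter form of it TGACTCAGC, the CCAAT box, the GC box GGGCGG, the ETS-type core CCGGAAG, the YY1-type core AAGATGGCG and the TATA box TATAAA. Of these, the ETS-type core was in 9 of the 28 windows (32.1%), against 9.12% of the 27025 genes with a window and 17.3% of the 11118 of them that were tested here. GGGCGG was in 18 (64.3%), against 35.9% and 61%. CCAAT was in 11 (39.3%), against 37.9% and 38.7%. TGACNNNGC was in 5 (17.9%), against 12.5% and 14.7%, namely in Psmb5, Psmb6, Psmc6, Psmd9 and Psmd12, and TGACTCAGC in 0, against 0.426% and 0.423%. AAGATGGCG was in 2 (7.14%), against 1.49% and 2.97%, and TATAAA in 3 (10.7%), against 14.2% and 7.78%. A match is a description of these letters and not of a bound site.

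The 150 bases before the start are shown, 5′ to 3′ on the gene's strand, for the steepest risers Psmd9 and Psmd4, for Psmd6 and Psmc1 with CCGGAAG, for the catalytic Psmb5, and for Psmd10, which did not pass the test. Capitals mark matches to the motifs on either strand.
Psmd9 (chr5:123228040-123228189, plus strand): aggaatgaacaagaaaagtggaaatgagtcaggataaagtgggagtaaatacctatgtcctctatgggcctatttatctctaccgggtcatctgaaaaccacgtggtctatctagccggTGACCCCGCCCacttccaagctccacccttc
Psmd4 (chr3:95042615-95042764, minus strand): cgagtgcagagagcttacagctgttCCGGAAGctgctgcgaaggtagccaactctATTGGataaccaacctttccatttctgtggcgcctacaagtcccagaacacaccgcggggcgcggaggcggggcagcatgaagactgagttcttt
Psmd6 (chr14:14120946-14121095, minus strand): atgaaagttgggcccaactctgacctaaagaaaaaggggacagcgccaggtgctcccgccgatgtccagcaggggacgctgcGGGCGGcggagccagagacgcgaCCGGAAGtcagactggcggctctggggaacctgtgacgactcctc
Psmc1 (chr12:100110052-100110201, plus strand): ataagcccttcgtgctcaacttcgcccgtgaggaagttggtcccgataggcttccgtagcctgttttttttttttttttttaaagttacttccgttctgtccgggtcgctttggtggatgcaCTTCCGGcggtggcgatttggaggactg
Psmb5 (chr14:54617996-54618145, minus strand): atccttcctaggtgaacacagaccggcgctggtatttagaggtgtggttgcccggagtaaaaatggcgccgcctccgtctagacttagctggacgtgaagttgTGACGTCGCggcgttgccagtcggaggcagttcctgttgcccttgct
Psmd10 (chrX:140956712-140956861, minus strand): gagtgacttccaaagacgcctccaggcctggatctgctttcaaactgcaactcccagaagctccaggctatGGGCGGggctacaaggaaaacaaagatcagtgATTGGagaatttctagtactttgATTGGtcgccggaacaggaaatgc
The starts are those of RefSeq: that of Psmd9 lies 58777 bases inside the gene as GENCODE M21 gives it, that of Psmd4 is the same in both, and those of the other 4 lie 17 to 48 bases inside. In Psmd9 the TGACNNNGC match begins 31 bases before the start and overlaps a match to the GC box on the other strand. Psmb5 holds a TGACNNNGC match 47 bases before its start, and Psmd10 has CCAAT on the other strand at 47 and 24 bases and GGGCGG at 79 bases before its start. Psmd4 and Psmd6 carry CCGGAAG at 125 and 45 bases before the start, and Psmc1 carries it on the other strand at 28 bases.

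The inducible catalytic subunits were lower on fasting. Of the constitutive ones only Psmb7 was called higher in both genotypes, and Psmb5 and Psmb6 were called in Plin2-null liver only. The Plin2-null calls of Psmb6 and Psmb7 were each lost under 4 of 22 other settings, as given above. Psmb8, Psmb9 and Psmb10, which take the places of Psmb5, Psmb6 and Psmb7, fell in both genotypes, and Psmb11, the thymus subunit, was not tested. Psmb10 had 11.3, 19.1, 18.4, 14.9 and 20.5 CPM in fed and 2.53, 3.57, 3.04, 5.79 and 6.04 CPM in fasted Plin2+/+ libraries. In Plin2-null libraries it had 17.8, 24.6, 17.8, 10.9 and 14.8 CPM fed and 4.95, 6.23, 7.66, 6.65 and 7.14 CPM fasted. Fasted libraries lay below fed ones throughout, at log2 changes of -2.02 ± 0.24 and -1.40 ± 0.23 (edgeR adjusted p = 1.07e-06 and 8.57e-05). The log2 change of Psmb8 was -1.58 ± 0.16 and -1.17 ± 0.16 (adjusted p = 1.23e-07 and 7.12e-06; edgeR). That of Psmb9 was -1.69 ± 0.28 and -1.01 ± 0.28 (adjusted p = 7.33e-05 and 0.00663; edgeR).

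The ratio of constitutive to inducible subunit, taken from the TPM values, shifted accordingly. Psmb7 over Psmb10 was 4.28, 2.97, 2.81, 3.22 and 2.44 in the fed and 29.3, 24.6, 24.2, 14.5 and 11.0 in the fasted Plin2+/+ libraries. In Plin2-null mice it was 2.61, 2.13, 2.44, 5.24 and 3.14 fed and 12.7, 13.1, 8.87, 9.17 and 9.33 fasted. No fed and fasted library overlapped in either genotype. The means were 3.15 ± 0.695 and 20.7 ± 7.65 in Plin2+/+ and 3.11 ± 1.24 and 10.6 ± 2.07 in Plin2-null liver (SD, n = 5 each). Psmb6 over Psmb9 went from 14.2 ± 2.59 to 51.5 ± 12.7 and from 12.2 ± 3.26 to 35.9 ± 7.76. Psmb5 over Psmb8 went from 6.02 ± 0.942 to 24.8 ± 6.84 and from 5.34 ± 1.21 to 25.4 ± 8.67.

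**Figure D4:**
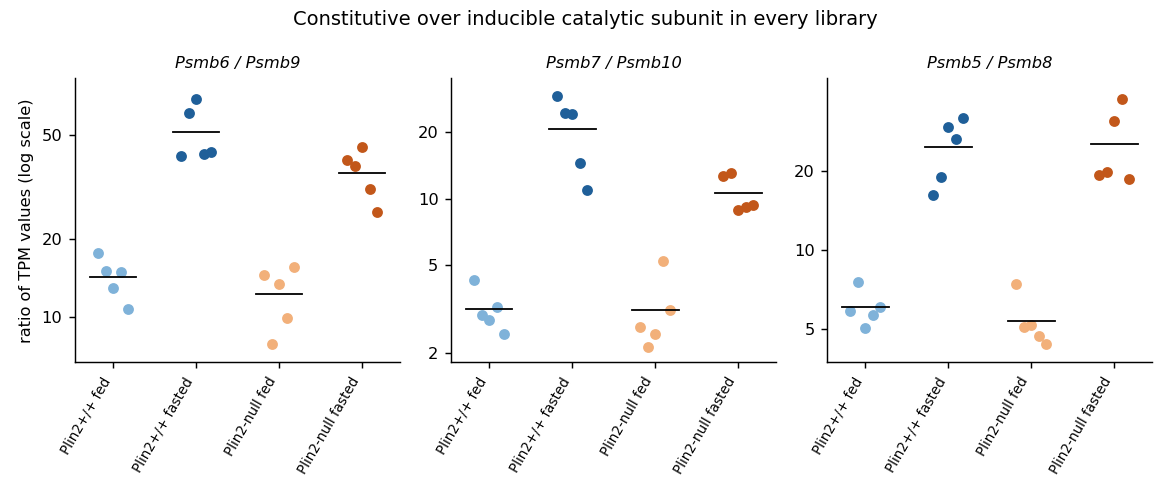
Ratio of the TPM values of each constitutive catalytic subunit to the inducible subunit that replaces it, in every library (points) with the group mean (line), on log axes that do not start at 0. Fasted libraries lie above fed ones in every panel, with means rising from 3.15 to 20.7 for Psmb7 over Psmb10 in Plin2+/+ liver.

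Markers of immune and other non-parenchymal cells moved in different directions on fasting. Of all genes tested, 20.9% were higher and 21.7% lower in Plin2+/+, and 18% higher and 18.1% lower in Plin2-null liver. Of the 7 Kupffer and macrophage markers 5 were lower on fasting in Plin2+/+ and 4 in Plin2-null liver, and their summed level went from 380 to 503 CPM in fed to 203 to 366 CPM in fasted Plin2+/+ libraries. In Plin2-null libraries it went from 297 to 708 CPM fed to 286 to 364 CPM fasted. The T, NK and B cell list had 3 of 7 lower in Plin2+/+ and 0 of 7 in Plin2-null liver (edgeR, with 0 at an unadjusted p under 0.05), with summed levels of 5.40 to 6.44 and 2.18 to 3.87 CPM, and of 4.18 to 5.43 and 4.02 to 5.45 CPM. Cholangiocyte markers had 3 of 6 lower in Plin2+/+ and 1 of 6 in Plin2-null liver, with sums of 33.2 to 51.3 CPM fed and 12.3 to 23.4 CPM fasted in the first, and of 30.0 to 48.2 and 17.6 to 25.8 CPM in the second. Stellate markers had 4 of 6 and 2 of 6 lower. Their mean sums were 403 CPM fed and 397 CPM fasted in Plin2+/+, and 395 and 392 CPM in Plin2-null liver. Of the sinusoidal endothelial markers 2 of 6 were higher and 2 of 6 lower in each genotype. Here the mean sums were 365 CPM fed and 379 CPM fasted in Plin2+/+, and 363 and 355 CPM in Plin2-null liver. Of the neutrophil markers 2 of the 4 tested were higher in each genotype, and Ly6g was at or next to 0 in all libraries. Cela1 and Cela2a, the tested members of a pancreatic acinar list of 5, were lower in both genotypes, and Prss2, Cpa1 and Ctrb1 were at or next to 0. Among 8 hepatocyte markers 4 were higher and 2 lower in Plin2+/+, and 1 higher and 3 lower in Plin2-null liver. The part of these cells in the changes of constitutive and inducible subunits was not tested.

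Genes that act with the proteasome, from lists chosen for their roles with earlier results of these data known, moved in several directions. Of the 5 activators and inhibitor, Psme1 and Psme2, the interferon-inducible activator, had log2 changes of -0.91 ± 0.18 and -0.98 ± 0.12 in Plin2+/+ and of -0.41 ± 0.17 (edgeR adjusted p = 0.0736) and -0.78 ± 0.12 in Plin2-null liver. Psme3 and Psme4, nuclear activators, rose by 0.30 ± 0.10 and 0.64 ± 0.12 and by 0.33 ± 0.10 and 0.40 ± 0.12. Psmf1, an inhibitor, rose in Plin2-null liver by 0.58 ± 0.13 and stood at 0.17 ± 0.13 in Plin2+/+ liver. None of the 5 chaperones that assemble the core (Psmg1, Psmg2, Psmg3, Psmg4 and Pomp) passed the test in either genotype by edgeR, with 0 at an unadjusted p under 0.05 in Plin2+/+ and 2 in Plin2-null liver. Over all genes tested 20.9% were higher and 21.7% lower in Plin2+/+, and 18% and 18.1% in Plin2-null liver. A list of 5 genes is too short to set a count of 0 apart from those shares. Adrm1, a further ubiquitin receptor, rose by 0.54 ± 0.16 and 1.00 ± 0.16, while the small subunit gene Sem1 stood at -0.09 ± 0.19 and 0.19 ± 0.19.

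Of 11 deubiquitinases and shuttle factors that work at the proteasome, 9 were higher in Plin2+/+ and 6 in Plin2-null liver, and 0 were lower. The shares of all genes tested beside this list and the next were 20.9% higher and 21.7% lower in Plin2+/+ liver. In Plin2-null liver they were 18% and 18.1%. The shuttle Ubqln2, which brings ubiquitin-tagged proteins to the proteasome, rose by 0.62 ± 0.11 in Plin2+/+ and by 0.87 ± 0.11 in Plin2-null liver. Usp14, a deubiquitinase that binds the particle, rose by 0.60 ± 0.12 and 0.42 ± 0.12. Of 12 regulators of subunit transcription, 11 were tested: 5 were higher and 1 lower in Plin2+/+, and 6 higher and 0 lower in Plin2-null liver. Nfe2l1, the factor known to drive subunit genes when proteasome activity falls short, rose by 0.43 ± 0.15 and 0.52 ± 0.15 (edgeR adjusted p = 0.0245 and 0.00955). Ngly1 and Vcp, from the same list of regulators, rose by 0.66 ± 0.12 and 0.50 ± 0.12 and by 0.42 ± 0.12 and 0.47 ± 0.12. Syvn1, a ubiquitin ligase of the endoplasmic reticulum, was the regulator that fell in Plin2+/+ liver, with a log2 change of -1.56 ± 0.38, and stood at -0.78 ± 0.38 in Plin2-null liver. Nfe2l2, the antioxidant factor, stood at 0.22 ± 0.11 and 0.16 ± 0.11 (edgeR adjusted p = 0.133 and 0.289). Foxo1 rose by 0.91 ± 0.27 and 0.89 ± 0.28, and Foxo3 stood at 0.17 ± 0.18 and -0.04 ± 0.18.

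Of 6 genes for ubiquitin and its activating enzymes, 1 was higher in Plin2+/+ and 2 in Plin2-null liver, and 0 were lower. Over all genes tested 20.9% and 18% were higher, and 6 genes are too few to set these counts apart from those shares. Ubb, a polyubiquitin gene, rose by 0.82 ± 0.15 and 0.89 ± 0.15, and Uba1, the main activating enzyme, stood at -0.04 ± 0.08 and 0.07 ± 0.08. Fbxo32, a ubiquitin ligase known from muscle wasting, rose by 1.70 ± 0.35 in Plin2+/+ liver and stood at 0.74 ± 0.35 in Plin2-null liver (edgeR adjusted p = 0.0999).

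Loss of Plin2 moved no proteasome gene past the threshold. In fed liver 0 of 35 were called by edgeR, 0 had an unadjusted p under 0.05, and DESeq2 and limma voom also called 0. Of all genes tested, 0.0123% were higher and 0.00613% lower. The median log2 difference was -0.02, and the values ran from -0.13 ± 0.10 (SE) for Psmd8 to 0.23 ± 0.39 for Psma8.

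In fasted liver, where 1.51% of all genes tested were higher and 1.73% lower in the Plin2-null group, edgeR again called 0 of 35 proteasome genes, as did DESeq2 and limma voom, and 4 had an unadjusted p under 0.05. The share over all genes hung on single libraries: 246 higher and 282 lower became 9 and 4 without Plin2+/+ fasted replicate 2, 10 and 5 without Plin2-null fasted replicate 5, and 1033 and 761 without Plin2+/+ fasted replicate 5. The 4 proteasome genes were Psmd5 at -0.37 ± 0.13 (edgeR adjusted p = 0.0975), Psma6 at -0.25 ± 0.11 (0.185), Psmb3 at 0.27 ± 0.12 (0.165) and Psmb6 at 0.38 ± 0.18 (0.202). Without Plin2+/+ fasted replicate 5, Psmd5 and Psma6 passed the threshold as lower in the Plin2-null group. The median over the 35 was -0.05, with a median of 0.25 for the 7 beta subunits and -0.16 for the 8 alpha subunits. The largest differences were 0.52 ± 0.26 for Psmb5 (edgeR adjusted p = 0.23) and -0.37 ± 0.13 for Psmd5. Both comparisons share libraries with the fasting comparisons, and their values are given side by side only. A missed threshold does not show that the genotypes were alike: in fasted liver the standard errors of single genes were between 0.08 (Psmd11) and 0.38 (Psma8).

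The difference between genotypes in the fasting response was tested as an interaction, which called 0% of all genes in either direction and 0 of the 35 (edgeR; DESeq2 and limma voom 0 of 35 each). Only Psmb2 had an unadjusted p under 0.05, at 0.37 ± 0.18 (edgeR adjusted p = 0.355). The median was -0.02 over the 35 genes, 0.26 over the beta subunits, and -0.12 over the alpha subunits. The largest values were 0.56 ± 0.37 for Psmb5 and 0.42 ± 0.25 for Psmb6, and the lowest -0.34 ± 0.18 for Psmc6.

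The interaction moved with the GC content of the transcripts. Over the 35 genes, whose GC content ran from 37.0% (Psmc6) to 57.4% (Psma7), the interaction had a Pearson r of 0.670 with GC, against 0.367 over the 16288 tested genes with a GC value, both as descriptions of genes measured in the same libraries. For loss of Plin2 the r over the 35 genes was 0.602 in fasted and -0.298 in fed liver, against 0.352 and -0.095 over all genes. Relative to the mean of their own group, single libraries carried a trend with GC of -0.25 to 0.30 (log2 per 10 percentage points). In the fasted Plin2+/+ libraries this trend was -0.24, -0.22, 0.04, 0.12 and 0.30 for replicates 1 to 5. Psmb5, with 56.6% GC, had 14.4, 20.0, 31.6, 29.4 and 44.6 CPM in the same libraries. The trend then removed was a different one, of each library relative to the mean of all 20 libraries, which includes GC differences between groups. Over all genes this removal brings r near 0 by its construction, and r was 0.021 there. Whether the trend was technical was not tested. Over the 35 genes r fell to 0.042. The removal takes the GC trend of all genes out of these 35 as well, so this fall is not a separate observation. The interaction was then 0.34 ± 0.26 for Psmb5, 0.36 ± 0.24 for Psmb6 and -0.11 ± 0.13 for Psmc6. After this removal 32 of 35 genes were higher on fasting in Plin2+/+ and 31 in Plin2-null liver, with Psmb5 now also called in Plin2+/+ liver, at 0.66 ± 0.18 (edgeR adjusted p = 0.00628). With GC itself the fasting changes had r of 0.158 in Plin2+/+ and 0.609 in Plin2-null liver, and 0.425 and 0.480 after the removal.

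**Figure D5:**
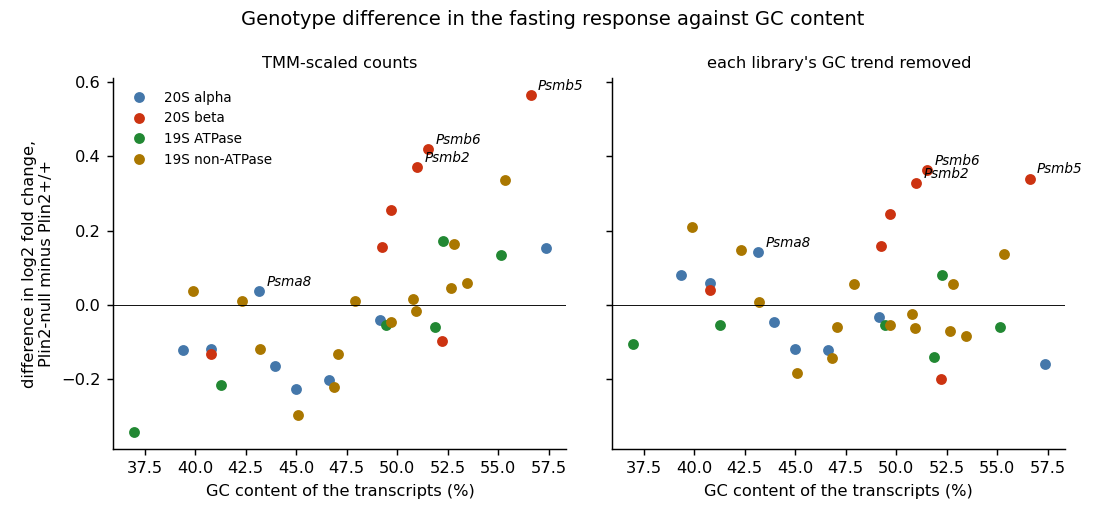
Difference in log2 fold change on fasting, Plin2-null minus Plin2+/+, of the 35 genes against the GC content of their transcripts (%), from TMM-scaled counts (left) and with each library's GC trend removed (right), coloured by family. The upward slope on the left (r = 0.670) is flat on the right (r = 0.042), where Psmb2, Psmb5 and Psmb6 still lie between 0.33 and 0.36. The removal fits GC itself, so over all genes a slope near 0 follows from the method. It takes the same trend out of the 35 genes, so their flatter slope is not a separate observation.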

How the data were processed

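The mRNA libraries from liver were strand-specific, per the protocols in the labels. Deposited were the authors' raw counts per Ensembl mouse gene and their TPM values. Reads were aligned with HISAT2 1.2.1 and counted with featureCounts 1.4.6-p1, per the submitters' processing notes, which list the human build GRCh38 although the identifiers are mouse; the build is therefore unclear, and annotation version, strand setting and multi-mapping are not given in the sources used. The header of the deposited TPM table is shifted by 1 cell against its columns, and 20 of 20 columns tracked the count column of the same library most closely. Of 55487 identifiers 55141 matched a symbol. None of 40 pairs of libraries within groups agreed within sampling noise (smallest chi-square per degree of freedom 45.3), so none was taken for a library deposited more than 1 time and each was counted separately; this does not show that they come from separate animals. Replicate numbers were given in accession order and pair nothing.

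The count test was that of edgeR 4.0.16 under R 4.3.3 (filterByExpr, TMM, robust glmQLFit over all 20 libraries, glmQLFTest), with Benjamini-Hochberg adjustment over 16312 genes and a threshold of 0.05. A standard error is the log2 change divided by the root of its F value. Total counts of 25506471 to 65579038 set the counting precision. Alternatives were DESeq2 1.42.0, limma 3.58.1 (voom, and log2(TPM + 1) and log2(TPM + 0.1)), RLE factors, library size alone, other filters, the mitochondrial share as a covariate, removal of GC trends, fits on the compared groups, and leaving out each library. Gene positions, exons and transcript GC were read from GENCODE M21 (GRCm38), promoters from RefSeq (GRCm38.p6). All 35 genes may be named; the 6 largest rises per comparison and the catalytic, ATPase, scaffold and chaperone genes get values, other genes only from role and marker lists. The genes and lists were chosen with earlier results of these data known. Figures used matplotlib 3.10.9.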

Additional observations from a re-analysis of the deposited data

Results flagged for a closer look

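In 140 sets of 5 libraries (35 genes in 4 groups) the highest or lowest value was compared with its nearest neighbour. In 8 sets it lay apart by more of the group's range than Dixon's 95% critical value allows. Chance gives about 1 in 20 sets, which is close to this count. Plin2+/+ fasted replicate 1 was the lowest of its group in 4 of the 8, at 54.22 CPM for Psma7, 29.16 CPM for Psmb2, 80.71 CPM for Psmc4 and 78.83 CPM for Psmc5. The other 4 fasted Plin2+/+ libraries held 75.6 to 78.8 CPM of Psma7. Relative to the mean of its group, Plin2+/+ fasted replicate 1 has a trend with GC content of -0.24 (log2 per 10 percentage points). Plin2+/+ fasted replicate 2 has a trend of -0.22 and held 76.5 CPM of Psma7. The part of the GC trend in the low values of replicate 1 was not tested. Plin2-null fasted replicate 2 was the highest of its group for Psma1, at 107.2 CPM. Plin2-null fed replicate 4 stood highest for Psmc6, at 118.1 CPM, and Plin2-null fed replicate 1 for Psmd9, at 19.49 CPM. Psma8 was highest in Plin2+/+ fed replicate 3, at 0.8938 CPM.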

How the results depend on the processing

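No gene that passed the threshold in a comparison changed sign under any setting tried. The median log2 change of the 35 genes on fasting in Plin2+/+ liver was 0.49 with library size alone, 0.47 on log2(TPM + 1) and 0.48 on log2(TPM + 0.1). In Plin2-null liver it was 0.41, 0.32 and 0.32 under the same settings and 0.43 on log2(TPM + 1) without Plin2-null fasted replicate 3, with 17 genes higher under each TPM setting and all libraries. DESeq2 called 30 genes higher in each genotype, and limma voom 29 and 31. With library size alone the median of all genes fell as well. For loss of Plin2 in fed liver the median was 0.065 with library size alone, and 0.069 and 0.071 under the TPM settings. The interaction had a median of -0.15 and -0.16 under the TPM settings, and of -0.07 on log2(TPM + 1) without Plin2-null fasted replicate 3. Leaving out each library in turn gave 28 to 32 genes higher on fasting in Plin2+/+ (median 0.59 to 0.72) and 28 to 31 in Plin2-null liver (0.60 to 0.67), with 0 lower. For loss of Plin2 the count of lower genes in fasted liver ranged from 0 to 2, the latter without Plin2+/+ fasted replicate 5, with medians of -0.09 to 0.01, and medians in fed liver of -0.05 to 0.00. Interaction medians were -0.07 to 0.01. Psma5-ps, a pseudogene with 4.36 to 10.2 TPM, may share reads with Psma5. No paired analysis was possible because the labels give no replicate numbers.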
